A study of Mus musculus with 6 samples.

Results

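Mitochondrial ribosomal protein genes were examined in LSK cells, a fraction of mouse bone marrow sorted as negative for lineage markers and positive for both Sca-1 and c-Kit, in which stem cells and early progenitors of the blood are found. The members are all rows of the deposited gene table whose symbol is Mrpl or Mrps followed by a number and at most 1 letter. This rule gave 76 of 22381 genes, 47 with an Mrpl name (large subunit) and 29 with an Mrps name (small subunit). RNA sequencing was done on 6 samples from C57BL/6 mice aged 8 to 12 weeks, 3 of genotype Tgif1-/- and 3 wild type. Tgif1 encodes a homeodomain protein known as a repressor in the TGF-beta and retinoic acid pathways. The labels name no agent, promoter or Cre line, do not say which part of Tgif1 is missing, and do not say whether the samples within a group are from different animals, so the authors' p-values may cover technical spread alone. The table holds 1 FPKM value per gene and group (fragments per kilobase of transcript and per mapped fragment total), with no value per sample, so no SD can be given and the depth per sample is unknown. Each pair of FPKM values below has Tgif1-/- first and wild type second, and each log2 ratio is Tgif1-/- over wild type.

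The mitochondrial ribosome sits in the matrix and makes a small set of hydrophobic respiratory chain and ATP synthase subunits encoded by mitochondrial DNA. Its RNAs come from mitochondrial DNA, but all of its proteins are encoded in the nucleus, made in the cytosol and imported. Some of these proteins descend from those of the bacterial ribosome, and others were added in mitochondria. Blood stem cells are known for low reliance on respiration at rest and for a rise in mitochondrial activity when they divide or differentiate.

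Tgif1 itself stood at 88.6 and 71.5 FPKM with a failed test, so it does not bear out the label, and directions are between groups as labelled. The LSK markers were present, with c-Kit (Kit) at 193 and 202 FPKM, Sca-1 (Ly6a) at 120 and 88.9 FPKM, and the 8 progenitor markers summing to 1156 and 1125 FPKM. Of the T and NK cell genes, Cd3e was at 0.134 and 0.250 FPKM and Lck, whose test failed, at 22.7 and 27.7 FPKM. Sums over the other marker lists were 58.2 and 120 FPKM for 8 B cell genes (4 called, 7 lower), 378 and 150 FPKM for 6 mast cell and basophil genes (4 called, 6 higher), and 3358 and 3723 FPKM for 8 neutrophil genes (none called, 8 lower). Mpo alone, whose test failed, gave most of the neutrophil sum (3055 of 3358 FPKM in Tgif1-/- and 3289 of 3723 FPKM in wild type). Its log2 ratio was -0.11, and that of Elane -0.35. The remaining neutrophil genes, all at far lower levels than Mpo, had log2 ratios from -0.85 (Camp) down to -2.56 (Ly6g). For 6 erythroid genes the sums were 322 and 225 FPKM (none called, 5 higher), of which Car1 alone gave 281 and 187 FPKM. For 4 megakaryocyte genes the sums were 202 and 128 FPKM (none called, 3 higher), with Ppbp lower at 4.61 and 9.54 FPKM. For 5 monocyte genes the sums were 363 and 357 FPKM (none called, 3 higher). For 6 T and NK cell genes they were 29.4 and 36.7 FPKM (none called, 2 higher), most of it from Lck. No gene of these lists was at 0 in both groups. In bulk RNA fewer cells of a type and less RNA per cell cannot be told apart, and the part of these cell types in the values below was not tested.

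Both groups expressed the whole set at nearly the same level. No Mrpl or Mrps gene passed the authors' test of a difference between the groups. Cuffdiff, the authors' tool, gave a usable test for 57 of the 76 members, and 0 of these reached a q (p adjusted over all tested genes) at or under 0.05. The share called over all 10730 tested genes was 0.662% (0.289% higher and 0.373% lower in Tgif1-/-), so a count of 0 among 57 is near that background. At an unadjusted p under 0.05 there was 1 member, Mrpl37, or 1.75% of the tested members, against 5.41% of all tested genes. The median log2 ratio of the tested members was 0.00 (-0.0026), with 28 higher and 29 lower values in Tgif1-/-. Over all tested genes with values above 0 the median was -0.03, and 42.6% were higher in Tgif1-/-. Summed over all 76 members, expression came to 4440 FPKM in Tgif1-/- and 4382 FPKM in wild type, a log2 ratio of 0.02.

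**Figure D1:**
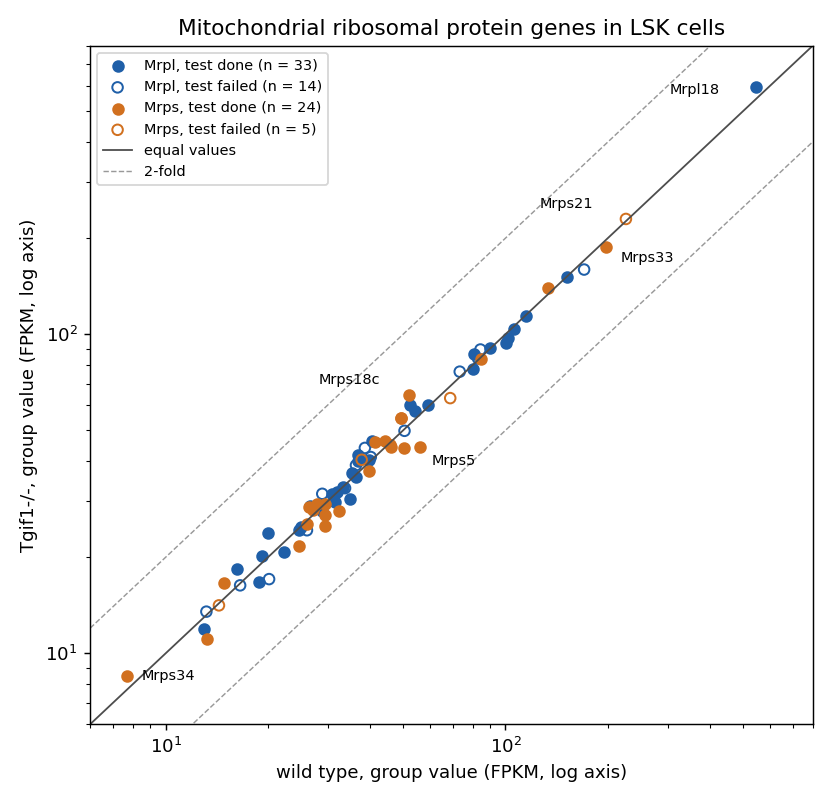
Group values of the 76 mitochondrial ribosomal protein genes, wild type on the horizontal and Tgif1-/- on the vertical axis, both in FPKM on log axes. Filled points are the 57 tested genes and open points the 19 whose test failed; all lie close to the line of equal values and well inside the dashed 2-fold lines, from Mrps34 at the bottom to Mrpl18 at the top.

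Bounds on each difference were read from the error of the authors' model, and hold only as far as that error does. The ratio of each log2 value to its test statistic gave a standard error, whose median over the tested members was 0.22 (0.09 to 0.41). This error belongs to the Cuffdiff model and was not measured here between samples. With it, the 95% interval lay inside a 2-fold difference in either direction for 57 of 57 tested members, and inside a 1.5-fold difference for 38. Measured ratios were smaller still. They were within 1.1-fold for 38 members (66.7%) and within 1.2-fold for 55 (96.5%). Among all tested genes in the same range of expression as the members, 65.8% and 89.2% met these bounds.

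The 2 subunits were alike in their medians. The 33 tested Mrpl genes had a median log2 ratio of 0.00 (0.00063), with 17 higher and 16 lower values. The 24 tested Mrps genes had a median of -0.01, with 11 higher and 13 lower. The Mrps genes were more widely scattered, with an SD across genes of 0.16 against 0.11 for Mrpl, and 12 of 24 against 26 of 33 stood within 1.1-fold. Their median standard errors were 0.23 and 0.21. With each log2 ratio divided by its standard error, the SD across genes was 0.73 for Mrps and 0.77 for Mrpl. On that scale the Mrps genes were not the more scattered. Genes are not replicates, and the scatter was not tested on either scale. Grouped by origin, the median was 0.00 (0.0018) for 20 tested large subunit proteins with a bacterial counterpart and 0.00 (0.00063) for 13 found only in mitochondria. For the small subunit it was 0.00 (-0.0048) for 13 with a bacterial counterpart and -0.05 for 9 found only in mitochondria.

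**Figure D2:**
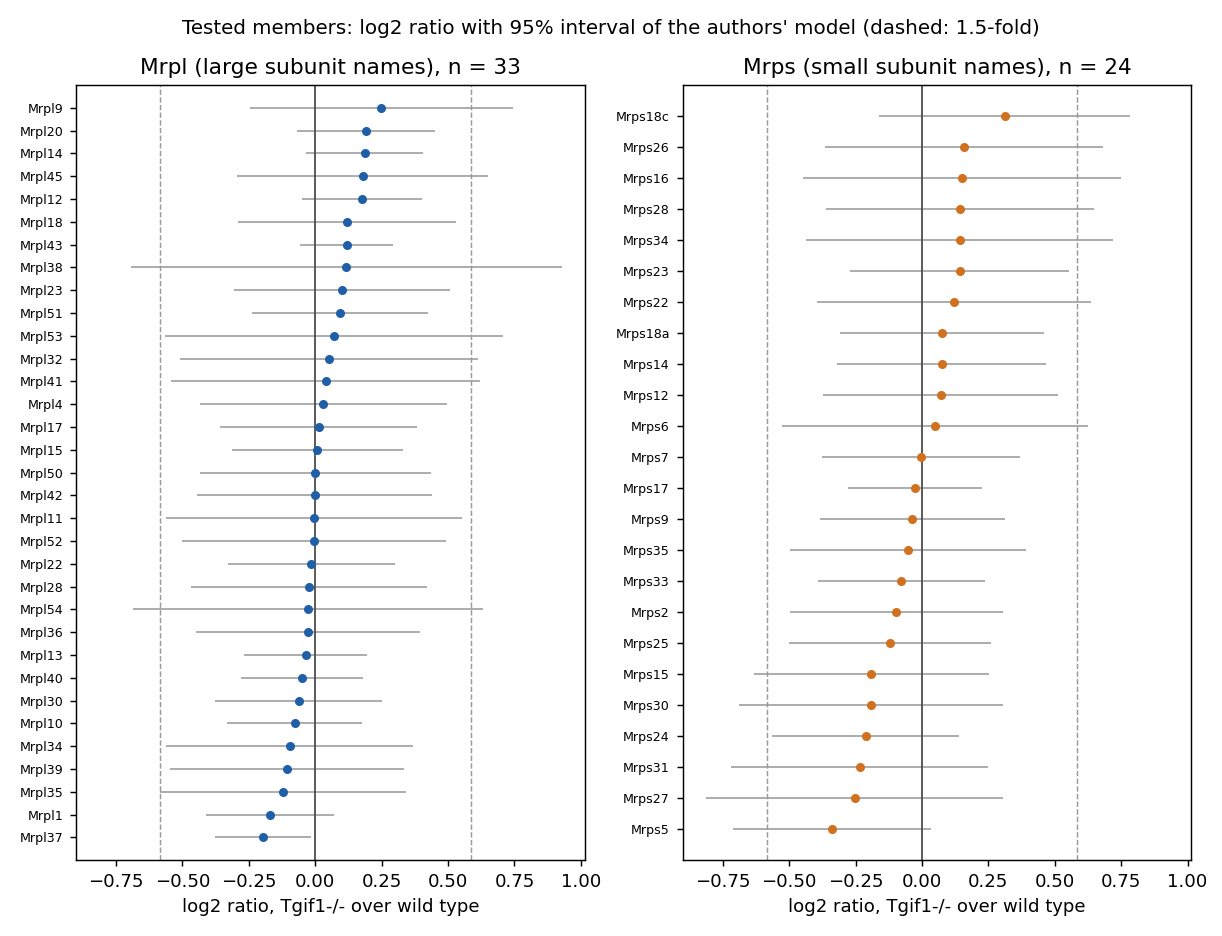
Log2 ratio, Tgif1-/- over wild type, of each tested gene, with the 95% interval from the standard error of the authors' model (grey bars); Mrpl genes on the left, Mrps genes on the right, dashed lines at 1.5-fold. The interval of Mrpl37 is the only 1 that leaves out 0, and Mrps5 and Mrps18c lie farthest from 0.

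Mrpl37, a large subunit protein with no bacterial counterpart (ENSMUSG00000028622, chromosome 4, 106728479 to 106739473 in the table), was at 30.5 FPKM in Tgif1-/- and 35.0 FPKM in wild type. Its log2 ratio was -0.20 with a standard error of 0.09, and the authors' deposited table gives p = 0.0326 and q = 0.766. That error is among the smallest of the set. When it was raised to the median of genes at like expression, p became 0.329.

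Mrps5, the counterpart of the bacterial S5 protein that helps keep decoding accurate, had the lowest ratio of the tested members. It was at 44.4 and 56.2 FPKM, a log2 ratio of -0.34 with a 95% interval from -0.71 to 0.03 (p = 0.0753 in the authors' deposited table). Mrps18c, which takes the place of bacterial S18 in the small subunit, had the highest. It was at 64.6 and 52.0 FPKM, a log2 ratio of 0.31 with an interval from -0.16 to 0.78 (p = 0.195 in the authors' deposited table). Both intervals include 0. Its paralogue Mrps18b, which sits elsewhere in the small subunit, was at 40.4 and 37.8 FPKM with a failed test. The third paralogue, Mrps18a, is named for the small subunit but was located in the large subunit in ribosome structures, and stood at 29.4 and 27.9 FPKM. All 3 thus had the higher value in Tgif1-/-, by a log2 ratio of 0.31, 0.10 and 0.08, none of them past the test.

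The promoter windows of these extremes are shown because they are the members whose values differed most, or had the smallest p. They run from 250 bases before to 30 bases after the start site (RefSeq, GRCm38.p6), 5′ to 3′ on the gene's strand. Capitals mark matches on either strand to 3 motifs: CCGGAAG (bound by ETS factors such as GABP), AAGATGGC (YY1) and, for NRF1, GCGC and TGCGC with any 1 base between them.
Mrpl37 (chr4:107066837-107067116, minus strand): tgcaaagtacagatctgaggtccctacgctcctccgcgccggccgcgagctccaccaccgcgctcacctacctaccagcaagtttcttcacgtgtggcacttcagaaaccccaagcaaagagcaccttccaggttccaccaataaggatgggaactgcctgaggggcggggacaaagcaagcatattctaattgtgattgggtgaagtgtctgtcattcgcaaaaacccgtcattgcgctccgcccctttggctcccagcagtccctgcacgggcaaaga
Mrps5 (chr2:127587176-127587455, plus strand): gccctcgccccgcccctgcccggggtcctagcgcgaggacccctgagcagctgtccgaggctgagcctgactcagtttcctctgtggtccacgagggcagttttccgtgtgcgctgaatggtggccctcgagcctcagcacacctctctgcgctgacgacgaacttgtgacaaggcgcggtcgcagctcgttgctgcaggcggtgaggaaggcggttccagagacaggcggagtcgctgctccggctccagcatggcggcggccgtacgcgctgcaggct
Mrps18c (chr5:100798509-100798788, plus strand): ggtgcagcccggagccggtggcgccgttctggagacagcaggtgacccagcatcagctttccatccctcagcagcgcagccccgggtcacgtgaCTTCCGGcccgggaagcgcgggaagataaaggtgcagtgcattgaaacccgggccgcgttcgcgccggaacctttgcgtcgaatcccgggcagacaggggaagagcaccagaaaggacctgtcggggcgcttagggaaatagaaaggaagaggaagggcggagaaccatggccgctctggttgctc
Of the 3 windows, only that of Mrps18c holds a match, an ETS motif that begins 156 bases before the start site. The windows of Mrpl37 and Mrps5 hold none of these letters, which says nothing about whether the factors bind there.

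Among large subunit proteins with a bacterial counterpart, the stalk and its base take in translation factors. Mrpl12, the stalk protein, was at 41.7 and 36.9 FPKM (log2 ratio 0.18, p = 0.123 in the authors' deposited table). Mrpl10, which anchors it, was at 29.8 and 31.5 FPKM. Mrpl11, at the stalk base, was at 33.1 and 33.2 FPKM. Mrpl1, of the opposite stalk where spent tRNA leaves, was at 16.7 and 18.8 FPKM, a log2 ratio of -0.17. The stalk genes stood on both sides of equality, and none passed the test. Near the peptidyl transferase centre, Mrpl2 was at 76.3 and 73.4 FPKM and Mrpl3 at 38.9 and 36.3 FPKM, and both tests failed. Mrpl14, which faces the small subunit, was at 46.2 and 40.6 FPKM, and Mrpl20 at 59.8 and 52.4 FPKM. These 2 members of the same class had a p of 0.0996 and 0.148 in the authors' deposited table. With the error raised as for Mrpl37, p became 0.325 for Mrpl14, 0.311 for Mrpl20 and 0.363 for Mrpl12. Mrpl9 had the highest large subunit ratio among tested genes, 0.25, at 23.8 and 20.1 FPKM, with an interval from -0.25 to 0.74. Mrpl22, which lines the exit tunnel, was at 24.8 and 25.1 FPKM.

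Among large subunit proteins found only in mitochondria, Mrpl45, which helps hold the ribosome to the inner membrane at the tunnel exit, was at 18.3 and 16.2 FPKM (log2 ratio 0.18, p = 0.459 in the authors' deposited table). Mrpl43 was at 40.0 and 36.8 FPKM with the smallest standard error of all tested members, 0.09, and a p of 0.189 in that table. With the error raised as for Mrpl37, its p became 0.547. In the central protuberance, the crest of the subunit, Mrpl38 was at 28.9 and 26.6 FPKM and Mrpl40 at 27.9 and 28.9 FPKM. Mrpl44, a relative of RNase III, was at 17.1 and 20.2 FPKM. Its log2 ratio of -0.24 was the lowest of the 19 members with failed tests, so no error goes with it. Mrpl16, which has a bacterial counterpart, had the highest ratio of those 19, 0.19, at 44.0 and 38.6 FPKM. Mrpl52 and Mrpl42, the most abundant tested large subunit members found only in mitochondria, were at 151 and 152 FPKM and at 114 and 115 FPKM.

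In the small subunit, Mrps12, at the decoding centre, was at 46.4 and 44.2 FPKM, and Mrps7 was at 29.3 and 29.4 FPKM. Values lower in Tgif1-/- included Mrps24, the counterpart of bacterial S3, at 28.0 and 32.4 FPKM, and Mrps15 at 44.0 and 50.2 FPKM. Mrps27, a pentatricopeptide repeat protein, was at 11.1 and 13.2 FPKM, and Mrps31 had a log2 ratio of -0.23. The p-values of Mrps24, Mrps27 and Mrps31 in the authors' deposited table were 0.236, 0.375 and 0.342. Values higher in Tgif1-/- included Mrps26 at 16.6 and 14.9 FPKM and Mrps28, placed where bacterial S1 would sit, at 54.6 and 49.4 FPKM. Mrps16, Mrps22 and Mrps34 are examples of members known from patients with respiratory chain deficiency, and not a full list of them. Mrps16 was at 45.8 and 41.2 FPKM, Mrps22 at 28.8 and 26.4 FPKM, and Mrps34 at 8.48 and 7.69 FPKM. None of the 3 passed the test. Mrps30, named for the small subunit and located in the large, was at 21.7 and 24.8 FPKM. Mrps36, since recognised as part of the 2-oxoglutarate dehydrogenase complex, was at 44.9 and 45.9 FPKM with a failed test, and its pseudogene Mrps36-ps1 was listed at 22.0 and 22.6 FPKM. Reads shared with such copies leave the values of these genes uncertain.

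Apart from the stalk protein Mrpl12, which is present in several copies, ribosomal proteins occur once per assembled ribosome, but their transcript levels were not equal. FPKM is scaled to transcript length, which allows a rough comparison between genes, as far as reads were assigned to the right gene. The mean of the 2 groups ran from 8.09 FPKM for Mrps34 to 570 FPKM for Mrpl18, with a median of 38.4, and 77.9% of all tested genes lay below that median. Of 76 members, 47 lay between 20 and 60 FPKM, 11 below 20 and 8 above 100. The medians were 37.6 FPKM for Mrpl and 39.1 FPKM for Mrps. Mrpl18 stood apart, at 594 and 547 FPKM, 2.50 times the level of the next member, Mrps21, at 230 and 226 FPKM. Mrps33 followed at 187 and 198 FPKM, then Mrpl33 at 159 and 170 FPKM. In the table Mrpl18 shares a position block with Tcp1, a chaperonin subunit at 341 and 332 FPKM, and with Acat3 at 21.2 and 21.9 FPKM. Mrpl33 shares its block with Bre and Rbks. Reads of overlapping neighbours may therefore not have been kept apart. The tests of Mrps21 and Mrpl33 failed. The lowest members after Mrps34 were Mrps27, Mrpl35 at 11.9 and 13.0 FPKM, Mrpl55 at 13.5 and 13.2 FPKM, and Mrps11.

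Tests failed for 19 of 76 members. Of all genes that reached 1 FPKM in either group, 24.2% failed. They were 14 of 47 Mrpl and 5 of 29 Mrps genes. Members whose position block in the table held another gene failed in 11 of 22 cases, and those alone in their block in 8 of 54. Over all genes at that level the shares were 35.6% and 20.5%. The log2 ratios of the failed members ran from -0.24 to 0.19, inside the range of the tested ones.

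Mrps11 and Mrpl46 show such a block. Both carry the positions 85920122 to 85937875 of chromosome 7 in the table, both tests failed, and their values were 14.1 and 14.4 FPKM for Mrps11 and 16.3 and 16.6 FPKM for Mrpl46. In RefSeq (GRCm38.p6) they are transcribed away from each other, with 41 bases between their start sites, so that 1 small-subunit and 1 large-subunit gene begin within a single promoter region. Its 2 overlapping windows, marked as above, show the arrangement.
Mrps11 (chr7:78782881-78783160, plus strand): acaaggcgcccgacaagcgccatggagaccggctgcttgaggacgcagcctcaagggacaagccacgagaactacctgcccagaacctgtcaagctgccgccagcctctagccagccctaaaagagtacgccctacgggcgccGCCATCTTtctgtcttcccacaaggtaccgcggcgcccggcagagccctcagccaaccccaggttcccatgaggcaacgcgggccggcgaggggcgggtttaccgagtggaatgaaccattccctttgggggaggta
Mrpl46 (chr7:78783060-78783339, minus strand): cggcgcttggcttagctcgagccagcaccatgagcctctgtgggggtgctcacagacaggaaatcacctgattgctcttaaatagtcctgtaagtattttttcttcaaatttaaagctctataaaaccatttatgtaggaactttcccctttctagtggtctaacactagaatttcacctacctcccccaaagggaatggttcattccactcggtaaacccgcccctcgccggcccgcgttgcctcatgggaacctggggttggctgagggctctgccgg
The match in the Mrps11 window is a YY1 motif, read on the opposite strand, that begins 107 bases before the Mrps11 start. Only 41 bases lie between the start sites, so the motif is downstream of the Mrpl46 start, on the Mrpl46 strand. The Mrpl46 window ends before reaching the motif, which is why no match is marked there.

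Across the family, promoters held these motifs more often than promoters at large. Of the 76 members, 67 had a window in the RefSeq table, and the first listed window of each gene was used. The ETS motif was in 21 of the 67 (31.3%). It was in 8.70% of the windows of all 27025 genes and in 16.0% of those of the 7049 tested genes whose symbol had a window. The NRF1 motif was in 12 (17.9%, against 4.57% and 9.15%), and the YY1 motif in 8 (11.9%, against 2.38% and 3.31%). At least 1 of the 3 was in 34 windows (50.7%, against 14.3% and 25.7%). The TATA box letters TATAAA were in 4 (5.97%, against 13.7% and 7.43%) and the letters CCAAT in 25 (37.3%, against 36.6% and 39.3%). The letters CTGTCA, which TGIF proteins bind, were in 14 (20.9%, against 17.9% and 16.2%). These shares are descriptions of the reference sequence and carry no test. The 2 windows below are shown as examples. That of Mrpl45 holds the most NRF1 motifs, and that of Mrps27 an ETS with a YY1 motif, as do those of Mrps12 and Mrps18a.
Mrpl45 (chr11:97315466-97315745, plus strand): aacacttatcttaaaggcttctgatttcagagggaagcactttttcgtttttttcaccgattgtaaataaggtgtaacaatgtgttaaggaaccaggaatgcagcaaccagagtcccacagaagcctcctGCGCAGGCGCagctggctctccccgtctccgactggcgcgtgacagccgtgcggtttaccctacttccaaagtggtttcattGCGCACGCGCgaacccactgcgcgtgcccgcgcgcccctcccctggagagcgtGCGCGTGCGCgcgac
Mrps27 (chr13:99344536-99344815, plus strand): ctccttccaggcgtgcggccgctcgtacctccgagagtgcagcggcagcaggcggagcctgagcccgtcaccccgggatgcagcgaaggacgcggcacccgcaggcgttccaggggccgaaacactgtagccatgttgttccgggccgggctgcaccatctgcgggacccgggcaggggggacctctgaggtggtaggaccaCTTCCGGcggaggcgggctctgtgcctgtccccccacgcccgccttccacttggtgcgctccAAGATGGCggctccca
In Mrpl45 the NRF1 motifs begin 120 and 38 bases before and 15 bases after the start. In Mrps27 the ETS motif begins 48 bases before and the YY1 motif 14 bases after. The median log2 ratio was 0.08 over 16 tested members with the ETS motif and -0.03 over 33 without. For NRF1 it was 0.11 over 10 and 0.00 (-0.0049) over 39, and for the TGIF letters 0.08 over 11 and 0.00 (-0.0046) over 38. For YY1 it was 0.02 over 6 and 0.00 (-0.0043) over 43, for CCAAT 0.00 (-0.0034) over 20 and 0.00 (-0.0048) over 29, and for TATAAA -0.12 over 2 and 0.00 (-0.0026) over 47. These medians carry no error and were not tested.

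Of the factors that bind these motifs, Nrf1 had a usable test. It was at 29.7 and 29.5 FPKM, with a p of 0.925 in the authors' deposited table. Gabpa, the DNA-binding subunit of GABP, was at 121 and 130 FPKM and Yy1 at 85.3 and 83.9 FPKM, both with failed tests. The coactivator Pprc1 was at 40.7 and 51.4 FPKM, also with a failed test. Of 10 nuclear regulators, 4 were tested and 0 called.

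The rest of the mitochondrial translation apparatus also held no called gene. Of 7 mitoribosome subunits under other symbols, 4 were tested, and their median log2 ratio was -0.04. Ict1, a release factor built into the large subunit, had the lowest ratio of the 7, at 48.0 and 61.9 FPKM with a failed test. Of 22 rows for assembly factors, 15 were tested, 5 higher and 10 lower, with a median of -0.10. Their smallest p belonged to Rbfa at 14.8 and 18.0 FPKM, with p = 0.337 in the authors' deposited table. Of 12 translation factors, 9 were tested, 2 higher and 7 lower, with a median of -0.04. Tsfm, the exchange factor of Tufm, was at 20.5 and 23.8 FPKM, with a p of 0.202 in the authors' deposited table, and Tufm itself at 18.2 and 18.5 FPKM.

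Mitochondrial aminoacyl-tRNA synthetases, which charge the tRNAs the ribosome uses, had 2 of 15 tested genes at an unadjusted p under 0.05 (13.3%, against 5.41% of all tested genes), both lower. Ears2, for glutamate, was at 2.22 and 3.01 FPKM (log2 ratio -0.44, p = 0.0028 and q = 0.216 in the authors' deposited table). Iars2, for isoleucine, was at 21.9 and 24.8 FPKM (log2 ratio -0.18, p = 0.0203 and q = 0.615 in the authors' deposited table). Their standard errors were 0.15 and 0.08, against a median of 0.23 over the tested genes of the list. That of Iars2 was below the smallest error of the tested Mrpl and Mrps genes, 0.09. Neither gene passed after adjustment, and the median log2 ratio of the list was -0.09. Of 11 genes of mitochondrial transcription and RNA handling, 8 were tested, with a median of -0.07, and Tfam, which packages and transcribes mitochondrial DNA, was at 50.0 and 49.5 FPKM.

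The messages that the mitochondrial ribosome translates were examined after the other values had been seen. All 13 protein-coding genes of mitochondrial DNA were tested and 0 called, 5 higher and 8 lower, with a median log2 ratio of -0.05 and a range from -0.13 to 0.14. The most abundant, mt-Co1, a catalytic subunit of cytochrome oxidase, stood at 8211 and 8992 FPKM, and mt-Atp8 at 3375 and 3055 FPKM, with a p of 0.839 and 0.493 in the authors' deposited table. The nuclear-encoded respiratory chain and ATP synthase list, 84 rows with 67 tested, had a median of 0.04, with 39 higher and 28 lower. Cytosolic ribosomal protein genes, 84 rows with 56 tested, had a median of 0.06, with 45 higher and 11 lower. Neither held a called gene. Mitochondrial and cytosolic ribosomal protein genes thus had 49.1% and 80.4% of tested members higher in Tgif1-/-, against 42.6% of all tested genes, a difference that was not tested.

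**Figure D3:**
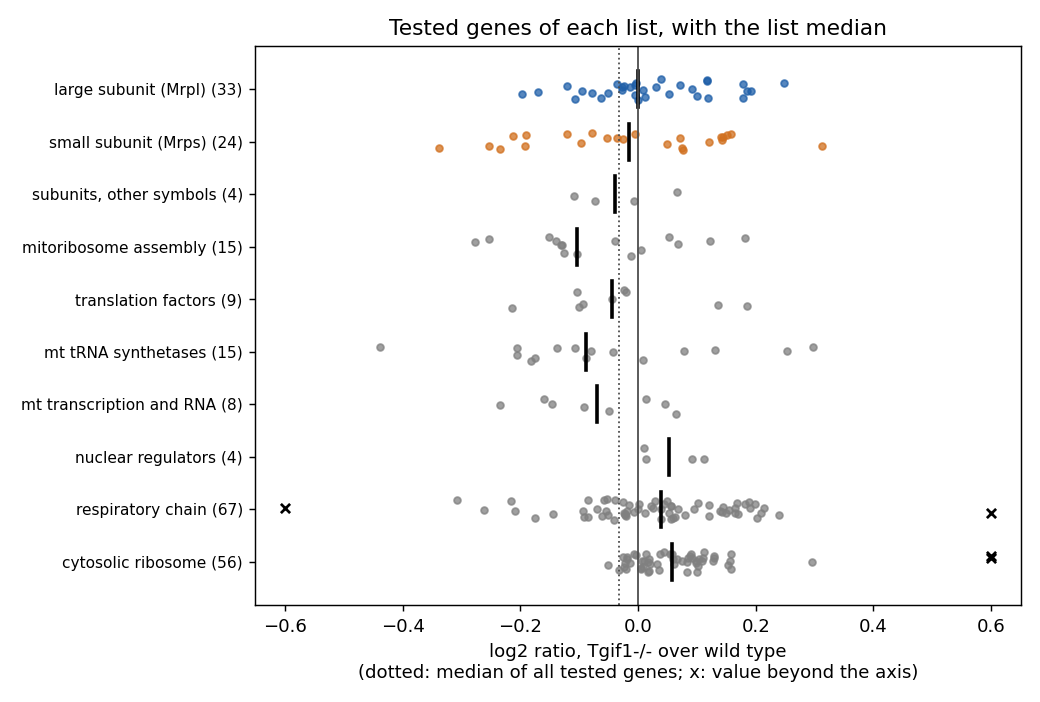
Log2 ratio, Tgif1-/- over wild type, of the tested genes of each list (points, number in brackets), with the list median as a black bar, the median of all tested genes as a dotted line and crosses for values beyond the axis. The medians of the 2 mitochondrial subunits, 0.00 and -0.01, lie between those of the synthetases and assembly factors on the left and those of the respiratory chain and cytosolic ribosome on the right.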

How the data were processed

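LSK RNA of 6 samples was sequenced (about 200 ng RNA, per the labels' protocols). TopHat and Cuffdiff were used, per the submitters' processing notes, which give no versions and name hg19, a human build, although the gene identifiers are mouse. Per the file headers, the authors deposited 1 FPKM value per gene and group. They also deposited a log2 fold change (wild type on top, with placeholder scores where a group is 0, and reversed here), a test statistic, a p-value and a q-value. The q-values match the Benjamini-Hochberg method run on the p-values of all 10730 tested genes (within 0.001), and the p-values match a normal test of the statistic for 10683 of 10683 genes with values above 0. No count was available, so no count model was run, and no sample could be left out.

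Log2 ratios use no pseudocount. The sources used here do not give the mouse build of the table's positions. None of the 76 members had its GRCm38 position (0 matches), so table and RefSeq positions are never combined. Starts count from 1. Members and lists were chosen with earlier results of these data known, the mitochondrial DNA list and the motifs after the values. By rule any member could be named, with statistics for those of the 10 smallest p-values, the 5 extremes of level and of ratio at each end, failed tests and the Mrps18 paralogues, and for other lists the genes of smallest p. Tufm, Tfam, Ict1, the motif-binding factors, Pprc1 and mitochondrial DNA genes were named after their values were seen. Identifiers were matched to GENCODE M21 symbols for 75 of 76 members. The procedure was tested on simulated data with 10683 genes. Python 3.11.15, pandas 2.3.3, numpy 2.4.6, scipy 1.17.1 and matplotlib 3.10.9 were used.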

Additional observations from a re-analysis of the deposited data

How the results depend on the processing

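The count of called members was 0 at q thresholds of 0.01 and 0.1 and with minimum values of 1 and 5 FPKM. It was also 0 with each standard error raised to at least the median of its expression bin (20 bins). A stricter threshold can add no call to a count of 0, and a raised error can only raise a p-value. The 1 member at an unadjusted p under 0.05 (Mrpl37) became 0 at p under 0.01 and 0 with the raised error. It stayed 1 with a minimum of 5 FPKM, which removed no member, the lowest being Mrps34 at 8.48 and 7.69 FPKM. The median log2 ratio of the members was between -0.004 and 0.03 over 7 alternatives (pseudocounts of 0.1 and 1, all 76 members, centring on all tested genes, a minimum of 5 FPKM, subunits under other symbols, 1 row per symbol). Centring gave the 0.03, and with it 37 in place of 28 of 57 tested members were higher. The minimum and 1 row per symbol could change nothing, since no member fell under that minimum or shared its symbol. Large minus small subunit medians were 0.02 and at most 0.03 in 4 alternatives. Centring shifts both subunits alike, so it could not alter this difference. Mitochondrial translation lists had 0 calls at q of 0.1, an alternative added after seeing the data. No paired analysis was possible because only group values were used and the groups share no sample number. The spread between samples and the depth cannot be read from group values. For single members, differences of 1.5-fold could be missed, and where the standard error is large (up to 0.41, Mrpl38) also those of 2-fold. Only 38 of 57 intervals lay inside 1.5-fold. A call at q also asks for more than an interval that leaves out 0, since Mrpl37 had such an interval and a q of 0.766.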
